A study of Mus musculus with 6 samples.

Results

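Expression of 10 genes of haem breakdown and iron handling was examined in injured mouse femoral arteries. They were Hmox1, Blvra, Blvrb and Slc48a1 on the haem side, and Slc40a1, Fth1, Ftl1, Tfrc, Slc11a1 and Slc11a2 on the iron side. The genes were chosen by name, with earlier results of these data known, and all 10 were found among the 18476 genes of the deposited table. Bulk RNA sequencing had been done on 6 femoral arteries from C57BL/6 mice of the wild type, collected on day 3 after wire injury, a procedure in which a guide wire is passed through the vessel to damage its wall. All 6 arteries had been injured. They differed in what was applied around the vessel: saline in 3, and vasostatin-2, a fragment of the secretory protein chromogranin A, in the other 3. The submitters describe the 3 libraries of each group as biological replicates, and all 6 carry the same batch label. No artery without injury was analysed here, so the values compare treatments of injured vessels only.

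When red cells break down in or near a damaged vessel, haem reaches macrophages and wall cells. Slc48a1 moves haem out of the lysosome, haem oxygenase 1 (Hmox1) splits it into biliverdin, carbon monoxide and iron, and the biliverdin reductases Blvra and Blvrb make bilirubin and related pigments. The freed iron is stored in ferritin, built from Fth1 and Ftl1 subunits, or leaves the cell through ferroportin (Slc40a1). Transferrin-bound iron enters through the transferrin receptor (Tfrc). Where their proteins are functional, Slc11a2 and Slc11a1 carry iron across endosomal and phagosomal membranes. The transcription factor Bach1 holds Hmox1, Slc40a1 and the ferritin genes back until haem binds to it, and Nrf2 (Nfe2l2) drives many of the same genes.

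Several of these transcripts also carry an iron-responsive element, a hairpin bound by the iron regulatory proteins Aco1 and Ireb2 when cells are short of iron. In a 5′ UTR the bound hairpin blocks translation, and in the 3′ UTR of Tfrc it protects the mRNA from decay. A search of GENCODE M21 transcripts (GRCm38) for the loop CAGTGN with N not G, on the transcript strand, found 7 such hairpins in 4 of the 10 genes. The search also required a C bulge, 5 paired bases between bulge and loop, and at least 4 of 6 paired bases below the bulge. The same pattern occurred in a UTR of 18 of 21877 protein-coding genes (0.08%). The elements are shown because, among the 4 genes with a match, they separate those whose protein from those whose mRNA is under this control. Capitals mark the bulged C and the loop.
Slc40a1, 5′ UTR, chr1:45925465-45925493, minus strand: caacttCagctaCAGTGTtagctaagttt
Fth1, 5′ UTR, chr19:9982732-9982760, plus strand: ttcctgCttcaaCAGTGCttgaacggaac
Ftl1, 5′ UTR, chr7:45459779-45459807, minus strand: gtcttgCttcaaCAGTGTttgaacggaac
Tfrc, 3′ UTR, chr16:32631219-32631247, plus strand: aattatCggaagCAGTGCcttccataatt
Tfrc, 3′ UTR, chr16:32631598-32631626, plus strand: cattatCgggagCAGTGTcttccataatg
Tfrc, 3′ UTR, chr16:32631663-32631691, plus strand: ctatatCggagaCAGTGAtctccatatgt
Tfrc, 3′ UTR, chr16:32631710-32631738, plus strand: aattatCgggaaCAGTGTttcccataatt
The other 6 genes held no stretch with these letters in the transcripts searched, which says nothing about hairpins of other shapes. RNA sequencing does not see translation, so for Slc40a1, Fth1 and Ftl1 the values below are mRNA levels only.

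Total estimated counts lay between 19333730 and 20105995 per library, so depth was nearly equal. Transcripts were found for smooth muscle (8 of 8 markers), endothelium (8 of 8), fibroblasts (8 of 8), monocytes and macrophages (12 of 12), fat (8 of 8), neutrophils (10 of 12) and red cells (11 of 12) in all 6 libraries. The labels name vascular smooth muscle cells, but the RNA came from whole arteries with many cell types. In such bulk samples fewer cells of a type and less RNA per cell cannot be told apart. Summed skeletal muscle markers stood at 974.6 CPM (counts scaled to library size) in vasostatin-2 replicate 3 against 63.4 to 96.2 in the others. Summed Schwann cell markers stood at 918.0 CPM in saline replicate 3 against 171 to 272. Haemoglobin transcripts differed most and are taken up below.

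The 10 genes spanned a wide range of levels. On the length-scaled TPM scale, as deposited, Ftl1 averaged 7725 ± 1222 and Fth1 5264 ± 940.4 over the 6 libraries (SD, n = 6). They ranked 3 and 11 among all genes of the table. Both ferritin genes have processed pseudogene copies in the mouse genome, so their counts may hold reads of those copies or lack reads shared with them. Hmox1 came next at 991 ± 379 TPM, rank 155. Blvrb (199 ± 28.6), Slc11a1 (159 ± 31.4) and Slc48a1 (144 ± 21.9) followed, and neighbours among these overlapped in their ranges over libraries. Blvra stood at 77.2 ± 8.55 TPM. Slc11a2 (25.3 ± 2.65), Slc40a1 (17.8 ± 6.18) and Tfrc (16.2 ± 4.25) were lowest, and neighbours again overlapped. The transcript of the iron exporter was therefore far less abundant per length than those of ferritin and haem oxygenase in each library.

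**Figure D1:**
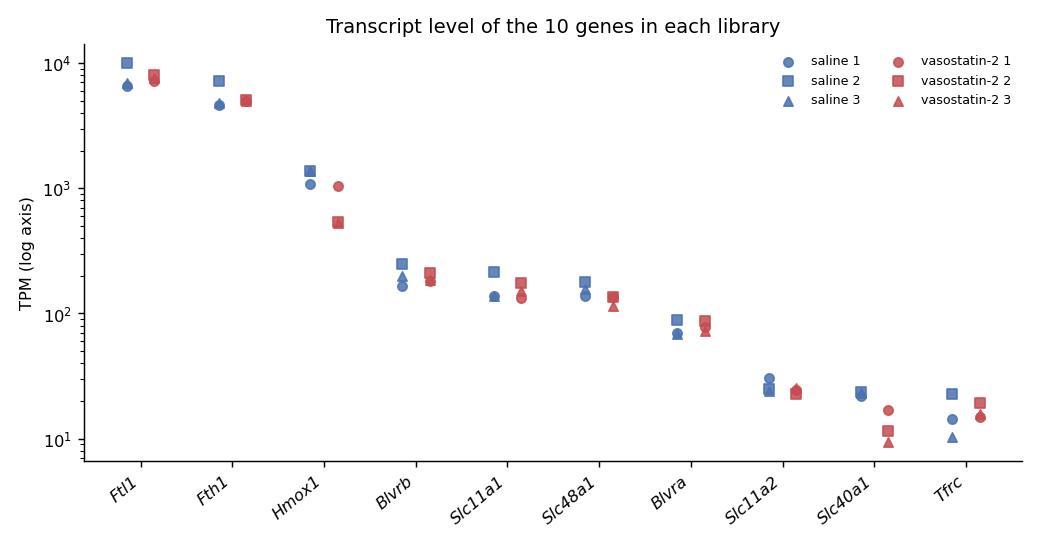
TPM (log axis) of each of the 10 genes in every library, ordered by mean level, with saline in blue and vasostatin-2 in red and 1 symbol per replicate number. Ftl1 and Fth1 lie highest, and in Hmox1 and Slc40a1 vasostatin-2 replicates 2 and 3 lie below all saline libraries.

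Treatment with vasostatin-2 was compared with saline over all 14557 genes that passed a low-count filter, and all 10 genes were among them. Hmox1 and Slc40a1 had the largest differences of the 10, each with a mean about 1.81-fold higher in saline. In both genes every vasostatin-2 library lay below every saline library. The quasi-likelihood test of edgeR, adjusted by Benjamini-Hochberg, called neither, and it called 0 of the 14557 genes (0%), with 1040 at an unadjusted p under 0.05 (7.14%). At that unadjusted level, 2 of the 10 genes were lower with vasostatin-2, against 3.85% of all genes tested, and none was higher, against 3.29%. The same 2 genes did not overlap between groups and were lower, against 6.72% of all genes, and none did so in the higher direction, against 6.07%. The median log2 fold change of the 10 was −0.11, beside −0.001 for all genes tested, and 8 of the 10 were below 0, beside 50.2% of all genes. That lean rested on saline replicate 2: without it 4 of the 10 were below 0 and the median was 0.119. The 10 genes were chosen with earlier results of these data known, so all these shares are descriptions only.

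Hmox1, Entrez gene 15368 (GRCm38.p6, chromosome 8 from 75093618 to 75100593, plus strand), was at 796, 1091 and 1009.9 CPM in saline replicates 1, 2 and 3. In the vasostatin-2 libraries, in the same order, it was at 786, 409 and 403.5 CPM. Vasostatin-2 replicate 1 was thus level with saline replicate 1, and only vasostatin-2 replicates 2 and 3 lay clearly lower. The log2 fold change was −0.86 (SE 0.29, 95% interval −1.54 to −0.18), with an unadjusted p of 0.0208 and an adjusted p of 0.650 by edgeR. DESeq2 gave an adjusted p of 0.121, limma-voom gave 0.372, and the authors' deposited table gives a log2 value of −0.86 with q = 0.145.

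Slc40a1, Entrez gene 53945 (chromosome 1 from 45908070 to 45926532, minus strand), followed the same order of groups. It was at 34.9, 41.1 and 37.2 CPM with saline, a narrow range. With vasostatin-2 it was at 28.1, 19.0 and 15.5 CPM, replicate 1 again being the highest of its group. The log2 fold change was −0.85 (SE 0.21, 95% interval −1.36 to −0.35), with an unadjusted p of 0.00543 and an adjusted p of 0.548 by edgeR. DESeq2 called it, with an adjusted p of 0.0305, as 1 of 113 genes it called in all (0.809% of 13973). The authors' deposited table lists it at q = 0.0410, where 0.533% of genes have q under 0.05. limma-voom did not call it (adjusted p = 0.273), so the call depends on the tool.

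Over the 6 libraries the log2 CPM of Slc40a1 and Hmox1 had a Pearson r of 0.973, given as a description. Among 10445 other genes averaging 10 CPM or more, 17 were more like Hmox1 by this measure. The 6 most alike were Cdc40 (r 0.991), Mib1 (0.990), Fam78b (0.987), Ube2f (0.987), Nifk (0.984) and Rtn4rl2 (0.983). The 6 most opposite were Phc1 (−0.993), Lacc1 (−0.985), B4gat1 (−0.979), Abhd14a (−0.978), Zdhhc1 (−0.978) and Eef1akmt1 (−0.976). These 12 are the extremes of all eligible genes over 6 libraries sharing 1 contrast, so the values do not show a link between genes. Most of the 12 moved far less than Hmox1: Cdc40 ranged from 33.6 to 41.1 CPM. Rtn4rl2, a Nogo receptor family member, ranged from 11.4 to 27.4 CPM.

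Upstream of haem oxygenase, the haem transporter gene Slc48a1 (Hrg1) was at 165, 231 and 187 CPM with saline and at 167, 166 and 142 CPM with vasostatin-2. The groups overlapped, and saline replicate 2 was the highest. Its log2 fold change was −0.30 (SE 0.14, 95% interval −0.62 to 0.03; edgeR adjusted p = 0.710). Without saline replicate 2 it was −0.15.

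Downstream of it, the biliverdin reductases showed no detectable difference. Blvra was at 38.2, 52.5 and 37.6 CPM with saline and 44.2, 49.5 and 41.1 CPM with vasostatin-2. Its log2 fold change was 0.07 (SE 0.15, 95% interval −0.28 to 0.42; edgeR adjusted p = 0.940). Blvrb was at 65.1, 105 and 78.4 CPM with saline and at 73.8, 84.4 and 74.8 CPM with vasostatin-2. Its log2 fold change was −0.09 (SE 0.17, 95% interval −0.50 to 0.31; edgeR adjusted p = 0.935). In both genes the vasostatin-2 libraries lay within the saline range. The Hmox1 transcript thus varied 2.70-fold between its highest and lowest library, and the transcripts of the next enzymes varied 1.40-fold (Blvra) and 1.61-fold (Blvrb).

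The ferritin genes, which store the released iron, were high in 1 library and lay closer together in the other 5. Fth1, the subunit with ferroxidase activity, was at 1974, 3328 and 2082 CPM with saline and at 2202, 2240.3 and 2188.5 CPM with vasostatin-2. Ftl1, the light subunit, was at 2921, 4806 and 3081 CPM with saline and at 3293, 3640.1 and 3463 CPM with vasostatin-2. Saline replicate 2 was highest for both, and the 3 vasostatin-2 libraries lay between it and the other saline libraries. The log2 fold changes were −0.16 for Fth1 (95% interval −0.65 to 0.34; edgeR adjusted p = 0.906) and −0.06 for Ftl1 (95% interval −0.55 to 0.43; edgeR adjusted p = 0.969). Without saline replicate 2 both were above 0, at 0.12 and 0.21. Slc40a1, Fth1 and Ftl1 each have transcripts with the 5′ UTR element printed above, which acts on translation and so sets no expectation for mRNA levels. For Slc40a1 it was found in 1 GENCODE transcript, and the submitters list 3 transcripts of that gene. Counts are per gene, so the share of Slc40a1 mRNA with the element is not known. The mRNA levels of Slc40a1, Fth1 and Ftl1 did not run in parallel. In vasostatin-2 replicates 2 and 3 Slc40a1 was at its lowest, and both ferritin transcripts were above their level in saline replicates 1 and 3.

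For iron entry, Tfrc was at 33.5, 57.1 and 24.1 CPM with saline and at 36.1, 46.5 and 37.8 CPM with vasostatin-2. The vasostatin-2 values lay inside the wide saline range (log2 fold change 0.07, 95% interval −0.65 to 0.79; edgeR adjusted p = 0.974). That value was 0.48 without saline replicate 2 and −0.17 without saline replicate 3. Slc11a1 (Nramp1) is the gene of a phagosomal metal transporter of macrophages and neutrophils. Whether the mouse strain used makes a working protein from it was not tested. The Slc11a1 mRNA was at 154, 258 and 154 CPM with saline and at 154, 199 and 173 CPM with vasostatin-2. Its log2 fold change was −0.11 (95% interval −0.64 to 0.42; edgeR adjusted p = 0.940), and 0.19 without saline replicate 2. Its paralogue Slc11a2 (DMT1), the endosomal iron transporter of most cells, varied least of the 10, from 39.0 to 52.0 CPM (log2 fold change −0.11, 95% interval −0.36 to 0.14; edgeR adjusted p = 0.862).

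**Figure D2:**
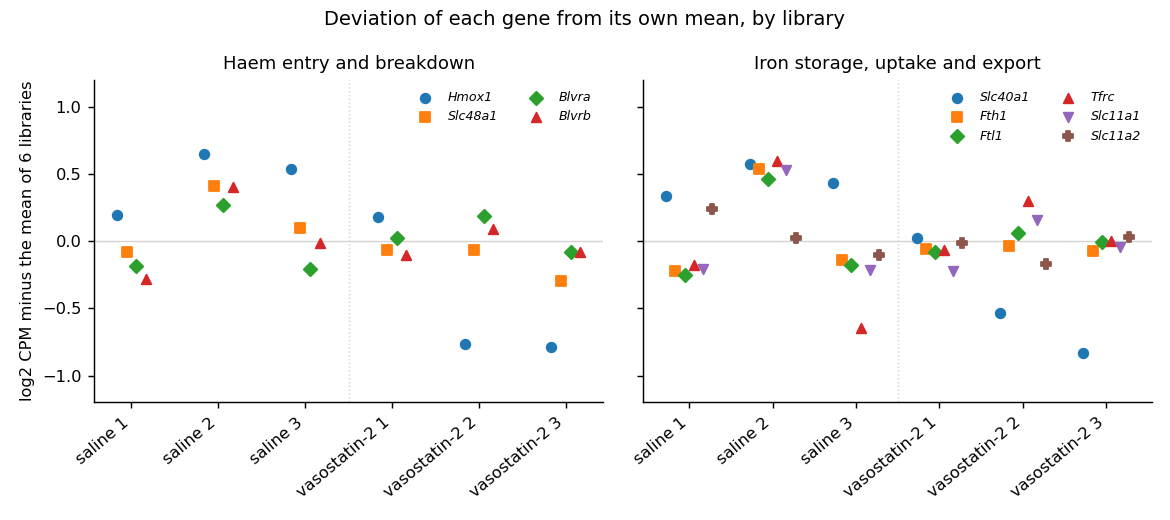
Deviation of each gene's log2 CPM from its own mean over 6 libraries, by library, with genes of haem entry and breakdown on the left and genes of iron storage, uptake and export on the right. Hmox1 and Slc40a1 are lowest in vasostatin-2 replicates 2 and 3, and most other genes are highest in saline replicate 2.

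In 9 of the 10 genes saline replicate 2 held the highest CPM value, Slc11a2 being the exception. Summed monocyte and macrophage markers were also highest there, at 10463 CPM, against 7343 and 7629 CPM in saline replicates 1 and 3 and 9284, 9788 and 9289.5 CPM with vasostatin-2. The largest part of that sum was Lyz2, at 2805.5, 5068 and 3179 CPM with saline and 3970, 3898 and 3385 CPM with vasostatin-2. Adgre1, C1qa, C1qb, C1qc, Fcgr1 and Ccr2 had log2 fold changes from 0.27 to 0.50, and Ccr2 was lowest in saline replicate 2. Csf1r, Cd68 and Lyz2 were at 0.11, 0.18 and 0.03, and Mrc1, Cd14 and Mertk were below 0. None of these was called by edgeR at an adjusted p of 0.05. Summed smooth muscle markers were at 932 CPM in saline replicate 2 and 921 CPM in vasostatin-2 replicate 1, against 1457 to 2296 CPM in the other 4. Summed neutrophil markers were at 605, 657 and 431 CPM with saline and 481, 241 and 333 CPM with vasostatin-2, lowest in vasostatin-2 replicates 2 and 3, the libraries with the lowest Hmox1 and Slc40a1. Markers of haemoglobin-clearing and iron-recycling macrophages (Cd163, Marco, Spic, Timd4, Vcam1, Clec4f and Siglec1; 6 of 7 passed the filter) summed to between 465 and 541 CPM with saline and between 519 and 761.5 CPM with vasostatin-2. Most of that sum was Siglec1, at 352, 293.5 and 352 CPM with saline and 362, 430.2 and 623 CPM with vasostatin-2 (log2 fold change 0.50). The other 5 tested markers had log2 fold changes below 0, at −0.32 for Cd163, −1.38 for Marco, −1.12 for Spic, −0.26 for Timd4 and −0.30 for Vcam1, and edgeR called none of the 6 at an adjusted p of 0.05. The part of these cell types in the values of the 10 genes was not tested.

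**Figure D3:**
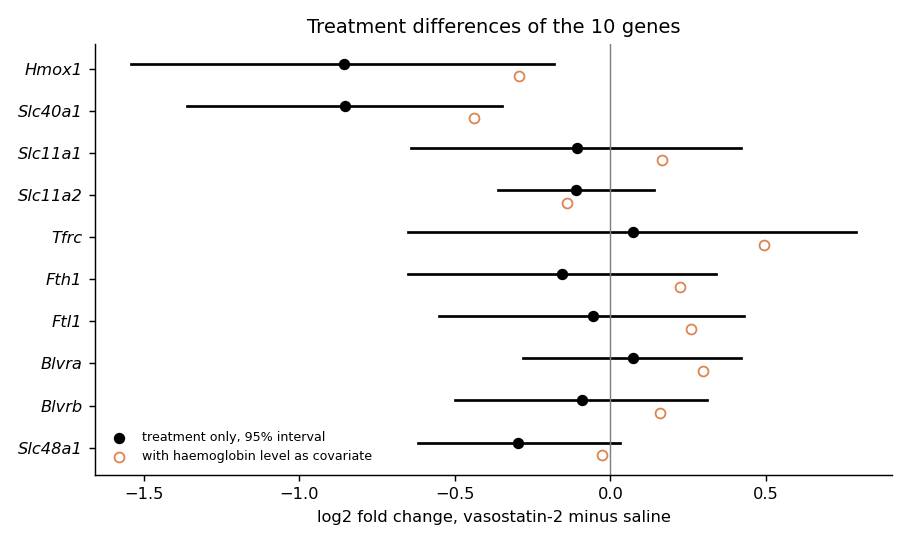
Log2 fold changes (vasostatin-2 minus saline) of the 10 genes with 95% intervals from the edgeR fit on treatment alone (filled points), and point estimates with the haemoglobin level as a covariate (open points). The intervals of Hmox1 and Slc40a1 lie below 0 and the other 8 include 0, and with the covariate Hmox1 moves to −0.30 and Slc40a1 to −0.44.

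Hmox1 is induced by haem, so its level was set beside the haemoglobin transcripts of each library. Haemoglobin mRNA comes from young red cells, and marks blood in the sample rather than haem itself. Hba-a1, Hba-a2, Hbb-bs and Hbb-bt were summed, which also avoids splitting reads between the near-identical alpha genes. The sum was 1807, 12175 and 2458 CPM in saline replicates 1, 2 and 3, and 2325, 375 and 306 CPM in the vasostatin-2 libraries in that order. In shares of all transcripts this was 0.698%, 4.32% and 0.945% with saline and 0.867%, 0.140% and 0.114% with vasostatin-2. The ratio of Hbb-bs to Hba-a1 stayed between 0.953 and 1.10, so the globin transcripts moved together. No globin gene passed the edgeR test (log2 fold changes from −2.50 to −2.42, each with an adjusted p of 0.710).

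The order of the libraries by Hmox1 was close to their order by haemoglobin. Vasostatin-2 replicates 2 and 3 were lowest in both, saline replicate 2 was highest in both, and vasostatin-2 replicate 1 lay among the saline libraries in haemoglobin and beside saline replicate 1 in Hmox1. On log2 scales Pearson's r was 0.943 (exact permutation p = 0.00417, two-sided, n = 6) and Spearman's rho was 0.943 (exact permutation p = 0.0167). This was the only relation tested, and the p-values were not adjusted. Earlier results of these data had already shown Hmox1 to move with the erythroid level, so the p-values are descriptions and not an independent test. The permutations also exchanged libraries between the 2 groups, so a group difference shared by both measures enters these p-values. Without the 2 libraries farthest from the median haemoglobin level, saline replicate 2 and vasostatin-2 replicate 3, r was 0.971 (exact permutation p = 0.0833, n = 4). As deviations from the group means r was 0.887. Within groups of 3, r was 0.791 for saline and 0.997 for vasostatin-2, with no test.

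The relation was far from proportional. Haemoglobin varied 39.8-fold between the highest and lowest library and Hmox1 2.70-fold. Saline replicate 2 had 4.95 times the haemoglobin of saline replicate 3 but 1.08 times its Hmox1. Vasostatin-2 replicate 1 had 6.83 times the haemoglobin of the mean of the other 2 libraries of its group, with 1.94 times the Hmox1 and 1.63 times the Slc40a1. Per 1000 haemoglobin CPM there were thus 89.6 CPM of Hmox1 in saline replicate 2, between 338 and 440 in saline replicates 1 and 3 and vasostatin-2 replicate 1, and 1093 and 1318.5 in vasostatin-2 replicates 2 and 3.

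**Figure D4:**
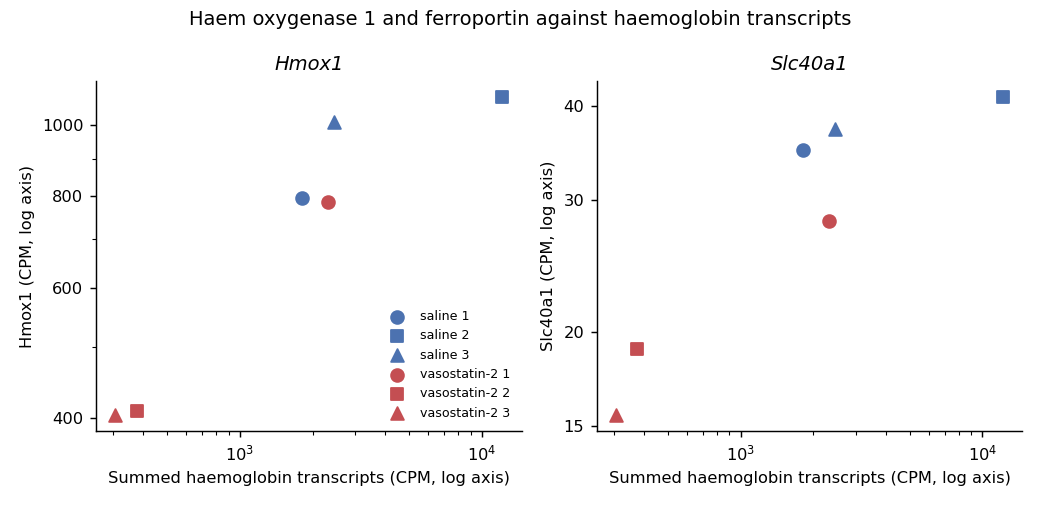
CPM of Hmox1 (left) and Slc40a1 (right) against the summed CPM of 4 haemoglobin genes in each library, both axes logarithmic. Vasostatin-2 replicates 2 and 3 lie at the lower left, and saline replicate 2 lies at the far right with little more Hmox1 than saline replicate 3.

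With the log2 haemoglobin sum as a covariate, the log2 fold change of Hmox1 was −0.30 (SE 0.20, edgeR unadjusted p = 0.195, adjusted p = 0.666). That of Slc40a1 was −0.44 (SE 0.17, unadjusted p = 0.0398, adjusted p = 0.614) and that of Slc48a1 was −0.03. The haemoglobin level itself was lower with vasostatin-2, at 1002 ± 1146 against 5480.0 ± 5807 CPM (SD, n = 3 each), so treatment and blood content cannot be told apart in these 6 libraries. Without saline replicate 2 and vasostatin-2 replicate 1, whose haemoglobin stood apart from their groups, the log2 fold changes were −1.15 for Hmox1 and −1.06 for Slc40a1, each with an edgeR adjusted p of 0.153. This pair was picked after the data had been seen, and each had the highest Hmox1 of its group. Haemoglobin in the remaining libraries was at 1807 and 2458 CPM with saline and 375 and 306 CPM with vasostatin-2. Treatment and blood content thus could not be told apart there either.

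Other genes of haem and iron handling, taken from 5 lists, were then placed beside the 10. Of the 60 that were tested, edgeR called 0 at an adjusted p of 0.05. The counts at an unadjusted p under 0.05 that follow stand beside 7.14% of all 14557 genes, 3.85% lower and 3.29% higher. The lists, too, were chosen with earlier results of these data known, so counts and medians are descriptions only. In haem synthesis, 1 of 9 tested genes had an unadjusted p under 0.05, a share near that of all genes (list median −0.02). It was Alas2, the first enzyme of the pathway in red cell precursors, at 27.7, 169 and 40.5 CPM with saline and 32.3, 5.20 and 4.03 CPM with vasostatin-2, the order of the globin transcripts. The fitted log2 fold change was −2.52 (edgeR adjusted p = 0.684), −1.30 without saline replicate 2 and −0.22 with the haemoglobin covariate. The housekeeping form Alas1 was at 141 ± 79.4 CPM with saline and 162 ± 18.7 CPM with vasostatin-2, and ferrochelatase (Fech), which inserts the iron, at 76.5 ± 2.76 and 72.5 ± 0.870 CPM (SD, n = 3 each).

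Among 11 genes of haem and haemoglobin scavenging and transport (median 0.009), 1 had an unadjusted p under 0.05, again near the share of all genes. This was Hpx, the haem-binding plasma protein hemopexin, at 1.41, 4.49 and 0.797 CPM with saline and 0.511, 0.801 and 0.714 CPM with vasostatin-2. The value rested on saline replicate 2, without which the log2 fold change moved from −1.71 to −0.71. Haptoglobin (Hp), which binds free haemoglobin, was abundant at 2389 ± 702.9 CPM with saline and 2270.5 ± 583 CPM with vasostatin-2. Lrp1, the receptor for hemopexin-bound haem, was at 1430.4 ± 106.5 and 1576 ± 59.2 CPM. The scavenging side thus showed no shift in its abundant members that the test could detect.

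Among 17 tested partners of iron uptake, oxidation, storage and export (median −0.07), 2 had an unadjusted p under 0.05, Steap3 higher and Ltf lower, close to the share of all genes. Steap3, the endosomal reductase that readies transferrin iron for transport by Slc11a2, was at 103, 108 and 122 CPM with saline and 146, 134 and 155 CPM with vasostatin-2. Every vasostatin-2 library was higher, and the log2 fold change of 0.38 (SE 0.09, edgeR adjusted p = 0.519) was 0.37 with the haemoglobin covariate. Ltf, the neutrophil granule protein lactoferrin, was near the detection limit, at 0.648 to 0.878 CPM with saline and 0.204 to 0.306 CPM with vasostatin-2 (log2 fold change −1.41, edgeR adjusted p = 0.558). The neutrophil marker sum given above, which includes Ltf, was lowest in vasostatin-2 replicates 2 and 3. In vasostatin-2 replicate 1 that sum was at 481 CPM, above saline replicate 3 at 431 CPM, while Ltf was at 0.306 CPM. The part of neutrophils in the Ltf value was not tested. The abundant ferrireductase Steap4 was at 411 ± 32.1 and 447 ± 100.2 CPM, and the iron chaperone Pcbp2 at 327 ± 15.4 and 325 ± 7.85 CPM.

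Iron sensing and hepcidin genes showed 0 of 9 tested members at an unadjusted p under 0.05 (median −0.05). Aco1, the iron regulatory protein that doubles as cytosolic aconitase, was at 86.2 ± 12.7 CPM with saline and 97.0 ± 5.14 CPM with vasostatin-2. Neo1, a receptor that works with hemojuvelin, was at 124 CPM in saline replicate 1 and between 61.1 and 67.4 CPM in the other 5 libraries, so its log2 fold change of −0.35 was 0.06 without that library. Hamp, the hepcidin gene, did not pass the low-count filter and stayed under 1 CPM in all 6 libraries.

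The list of Bach1 and Nrf2 regulators and targets stood lower than the others, with a median of −0.25 and 13 of 14 tested members below 0, beside 50.2% of all genes. Leaving out saline replicate 2 moved that median to −0.14. Under the haemoglobin covariate 9 of 14 members were below 0, with a median of −0.16. The 1 member above 0 was the Nrf2 target Nqo1, at 9.40, 6.20 and 8.82 CPM with saline and 9.14, 13.4 and 11.6 CPM with vasostatin-2. Its log2 fold change was 0.49 (edgeR unadjusted p = 0.0514, adjusted p = 0.705). At an unadjusted p under 0.05, 6 were lower and 0 higher, beside 3.85% and 3.29% of all genes. Leaving out single libraries gave between 4 and 7 lower, leaving out both libraries numbered 3 gave 3, and the haemoglobin covariate left 2, Txnrd1 and Slc7a11. The count of higher members was 1 with upper quartile scaling, with library size alone and without the low-count filter. It was also 1 with DESeq2, with limma-voom, and without saline replicate 1 or vasostatin-2 replicate 1. Slc7a11, the cystine transporter that feeds glutathione synthesis, was at 15.2, 24.3 and 8.86 CPM with saline and 5.90, 4.41 and 3.52 CPM with vasostatin-2. This gave a log2 fold change of −1.81 (SE 0.39, edgeR adjusted p = 0.458), and −1.04 with the covariate. Txnrd1, thioredoxin reductase, was at 128.5, 134 and 121 CPM with saline and 101, 95.4 and 94.8 CPM with vasostatin-2 (log2 fold change −0.40, SE 0.07, edgeR adjusted p = 0.414; −0.31 with the covariate). DESeq2 called both, with adjusted p values of 9e-04 for Slc7a11 and 0.00117 for Txnrd1, among the 113 genes it called in all (0.809% of 13973). limma-voom called neither (adjusted p = 0.331 for Slc7a11 and 0.201 for Txnrd1), so these calls also depend on the tool.

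The glutathione synthesis genes Gclm and Gclc had log2 fold changes of −0.46 and −0.29, with edgeR adjusted p values of 0.566 and 0.585. With the covariate these were −0.19 and −0.16. Bach1 itself was at 118, 108 and 103.5 CPM with saline and 100.4, 88.7 and 86.3 CPM with vasostatin-2 (log2 fold change −0.26, edgeR adjusted p = 0.640). Spic, a haem-induced transcription factor of iron-recycling macrophages, was at 6.27, 9.35 and 4.44 CPM with saline and 5.11, 2.15 and 1.99 CPM with vasostatin-2. Its log2 fold change was −1.12 (edgeR adjusted p = 0.684) and −0.23 with the covariate. The abundant peroxiredoxin Prdx1 was at 573 ± 191 CPM with saline and 447 ± 48.9 CPM with vasostatin-2, and −0.36 became −0.05 on the log2 scale without saline replicate 2. Nrf2 (Nfe2l2) was at 168 ± 11.3 and 160 ± 4.91 CPM.

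**Figure D5:**
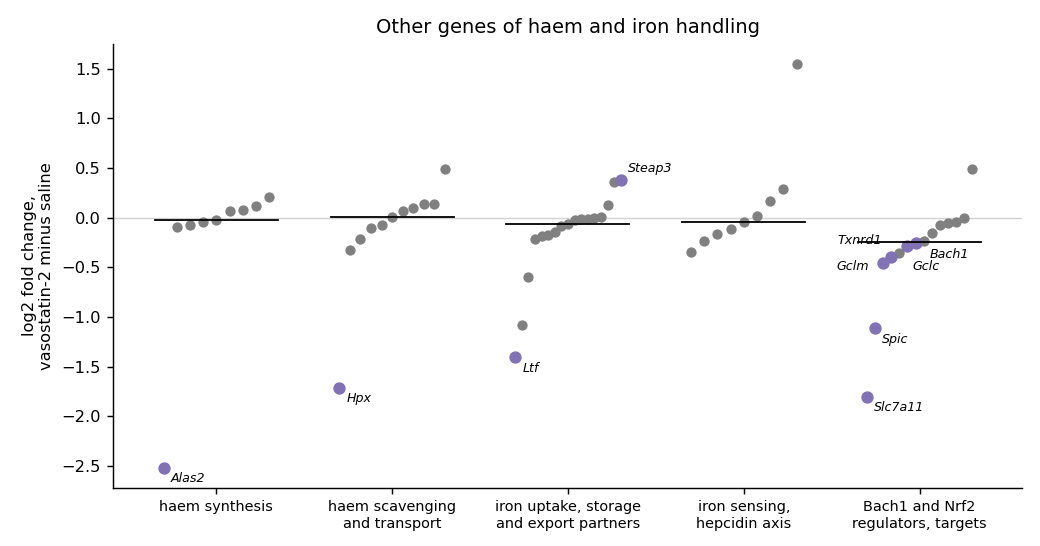
Log2 fold changes (vasostatin-2 minus saline) of the tested genes of 5 lists, each point 1 gene, with the list median as a bar and genes at an unadjusted edgeR p under 0.05 named in purple. The Bach1 and Nrf2 list has the lowest median, −0.25, with 6 named genes below 0.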

How the data were processed

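The 10 genes and all lists were chosen with earlier results of these data known. Per the labels' protocols, RNA was extracted with TRIzol, enriched with oligo(dT) beads and sequenced on a BGISEQ instrument. GRCm38.p6, HISAT2 2.1.0 and DESeq2 1.26.0 are named, without roles, per the submitters' processing notes. The counting tool and strandedness are not given in the sources used here. The authors deposited estimated counts that need not be whole (65.6% were whole), TPM and FPKM values (FPKM was not used), and their own DESeq2 log2 fold changes with p-values and q-values.

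Estimated counts were rounded, filtered with filterByExpr, scaled by TMM (factors 0.985 to 1.01) and tested with edgeR 4.0.16 (R 4.3.3), robust quasi-likelihood, treatment as the only term, with Benjamini-Hochberg adjustment over 14557 genes. CPM were taken over TMM-scaled library sizes, with a prior count of 2 on the log2 scale. Intervals of log2 fold changes are at 95%. DESeq2 1.42.0 and limma-voom 3.58.1 with quality weights were alternatives. DESeq2 left 584 adjusted p-values undefined. The code was tested on simulated counts. Replicates are described as biological, and p-values measure the spread between these 6 samples. Libraries differed by far more than counting noise, with at least 15.6 as the mean chi-square per gene between any pair, so none was counted as a duplicate.

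Named from each list were the 2 genes with the highest mean CPM and those with an unadjusted p under 0.05. Likeness to Hmox1 was Pearson's r of log2 CPM. Same-numbered libraries did not deviate together (r −0.119, 0.025 and 0.027), so the numbers were not taken as pairs. Other scalings, filters, tests, a replicate block, a haemoglobin covariate and leaving out libraries were tried. Leaving out pairs of libraries was added after the data had been seen.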

Additional observations from a re-analysis of the deposited data

How the results depend on the processing

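edgeR called 0 genes under each other scaling, filter and threshold tried, with unrounded counts, without the haemoglobin genes, with the covariate, and with the replicate block, which gave 0 calls and a log2 fold change of −0.93 for Hmox1 and −0.89 for Slc40a1. DESeq2 called 113 genes. Without saline replicate 2, with or without vasostatin-2 replicate 1 also left out, edgeR called 2 genes, neither of them among the 10, and leaving out each library in turn gave from 0 to 2.

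Hmox1 and Slc40a1 stayed below 0 under all 20 alternatives, from −1.25 to −0.30 and from −1.13 to −0.44. Not all of these could differ: the threshold of 0.1 reuses the main fit. Other scalings, unrounded counts and removal of the haemoglobin genes left −0.86 for Hmox1 and −0.85 for Slc40a1. Among the main fit and these alternatives, the only call of any of the 10 genes was that of Slc40a1 by DESeq2 (−0.85). The authors' own DESeq2 values also list Slc40a1 under 0.05, at q = 0.0410. Slc11a2 (−0.23 to −0.01) and Slc48a1 (−0.40 to −0.03) also stayed below 0. The other 6 turned sign. With limma-voom Slc11a1, Ftl1 and Blvrb were at 0.092, 0.091 and 0.017. With the haemoglobin covariate Slc11a1, Fth1, Ftl1 and Blvrb were at 0.17, 0.23, 0.26 and 0.16. Without saline replicate 2 and vasostatin-2 replicate 1 they were at 0.27, 0.13, 0.24 and 0.15. Without both libraries numbered 3 Tfrc was at −0.13. Leaving out single libraries gave −0.23 to 0.19 for Slc11a1, −0.17 to 0.48 for Tfrc, −0.29 to 0.12 for Fth1, −0.19 to 0.21 for Ftl1, −0.012 to 0.25 for Blvra and −0.24 to 0.11 for Blvrb. The cause of these turns was not tested.

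The correlation of Hmox1 with haemoglobin was 0.927 on TPM, 0.728 on linear CPM, 0.940 with Hbb-bs alone and 0.956 with other red cell genes. It ran from 0.912 to 0.980 when single libraries were left out. Without the 2 libraries farthest from the median it was 0.971 with p = 0.0833 (exact permutation, n = 4), where fewer samples allow only larger p values.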
